A study of Mus musculus with 7 samples.

Results

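The cells described here, called midbrain cells below, were taken as neuroepithelial cells of the early mouse midbrain from the control library of embryonic day (E) 8.5. The name describes the set, since some of the cells fell in a neurogenic or a forebrain cluster, as given below. They were selected by 6 genes: a cell had to carry at least 1 UMI (unique molecular identifier, a tag that counts 1 captured RNA molecule) of Otx2 and at least 1 of Mab21l2, and 0 UMIs of Six3, Shh, Sox10 and Twist1. Of 5874 cells with at least 1000 genes detected and at most 10% mitochondrial UMIs, 639 met this rule, or 10.9% (95% exact binomial interval 10.1 to 11.7). The 7 libraries of the series held 58432 cells that passed the same cell filter. Because the rule reads Otx2, Mab21l2, Six3, Shh, Sox10 and Twist1, the levels of these 6 genes describe how the cells were chosen and are not results.

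The E8.5 library came from the anterior part of embryos labelled Swiss-Webster, from mice that the study's methods place on a mixed background of that strain, with genotype Wnt1-Cre/+;ROSA-EGFPf/+, in which the Wnt1-Cre driver switches on EGFP in cells that have expressed it and in their descendants. EGFP-positive, DAPI-negative cells from pooled embryos were sorted into 1 droplet library, so midbrain cells in which the driver had not acted were not collected, and every cell described carried the driver. Wnt1 in embryos without the driver was not analysed here. The other 6 libraries were made at E9.5 and E10.5 from the pharyngeal region with the heart, 3 from controls of the same genotype and 3 from embryos titled Tbx1null, whose genotype the labels give as Wnt1-Cre/+;Tbx1+/-;ROSA-EGFPf/+ and the study as Wnt1-Cre/+;Tbx1-/-;ROSA-EGFPf/+. They entered only the count of cells that met the rule. With 1 library at this stage there is no replicate, so no difference below carries a p-value, and the intervals (95%, exact Poisson for levels and folds, exact binomial for shares of cells) cover counting error only and not the variation between embryos. Cells vary more than Poisson counts do, so for some genes the share of cells is given as well.

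In the embryo the midbrain lies between a forebrain that expresses Six3 at its front and a hindbrain that expresses Gbx2 behind. Otx2, a homeodomain factor, marks the neural plate in front of the midbrain-hindbrain boundary, and Gbx2 marks the plate behind it. At that boundary the isthmus secretes Fgf8, and Wnt1, En1 and the Pax2, Pax5 and Pax8 factors take part in forming and keeping the midbrain. Notch signaling, read out by the repressors Hes5 and Hes1, keeps neuroepithelial cells dividing, while proneural factors such as Neurog1 and Neurog2 start neuron formation.

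All cells of the library are labelled as neural crest, and the 639 cells had low levels of crest genes. The 14 migrating crest genes listed for the check, none of them in the rule, summed to 46.2 CPM (UMIs of a gene per 1000000 UMIs of the cells summed) in the 639 cells and to 990 CPM in 2210 crest cells of the same library with at least 1 UMI of both Sox10 and Twist1. The 12 crest mesenchyme genes summed to 21.3 CPM against 250 CPM. The 15 neural progenitor genes summed to 671 CPM against 284 CPM, with Sox2, a factor of neural stem cells, at 146 CPM (139 to 152) against 14.7 CPM. The 12 Hox and hindbrain genes summed to 3.85 CPM, compared with 560 CPM in 131 cells with at least 2 UMIs over Hoxa2, Hoxb1 and Hoxb2 and 0 of Shh, Sox10 and Twist1. These 3 Hox genes are on the list, so the level in the Hox cells follows from their selection and serves as a scale only. Of these Hox cells, 3 also met the midbrain rule. The 21 forebrain genes summed to 52.5 CPM against 773 CPM in 84 forebrain-side cells (Otx2 and Six3 at least 1 UMI each, and 0 of Shh, Sox10 and Twist1). Of those 52.5 CPM, Pax6, Wnt8b and Tcf7l2 contributed 15.04, 8.70 and 17.3 CPM. The 8 blood genes summed to 1.43 CPM, and the 7 endothelial genes to 36.4 CPM, with 4 of the 7 at 0 UMIs and Egfl7 alone at 35.8 CPM. The lists for surface ectoderm, cardiac muscle, somite and pharyngeal mesoderm, and endoderm summed to 34.0, 5.56, 2.64 and 2.92 CPM. The part of RNA from other cells in the results below was not tested. The 36 midbrain and isthmus genes, which include Gbx2, summed to 1359 CPM in the 639 cells, 510 CPM in the forebrain-side cells and 1416 CPM in 266 Gbx2 cells defined below, and the neural progenitor genes to 671, 641 and 756 CPM. Crest cells carried Sox10 and Twist1 and forebrain-side cells Six3 by rule, genes that the 639 cells had to lack. The contrasts with both sets therefore follow in part from the selection and serve as a scale only. The sums of the midbrain and neural progenitor lists did not set the cells apart from the Gbx2 cells, which differed in single genes given below. The study's own annotation of E8.5 clusters also holds neural tube and neural progenitor cells beside the neural crest.

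Depth in the 639 cells ran from 3645 to 60718 UMIs with a median of 20954, and the median cell had 3998 genes detected. The whole library held 140264662 UMIs over 5987 barcodes and shared 0 to 2 cell barcodes with each of the other libraries. Over its kept cells it had 4 UMIs of Xist and 3038 of the Y-linked Ddx3y. Leaving out cells by the 4 excluded genes removed 117 of 756 Otx2 and Mab21l2 cells, 64 of them with a Sox10 UMI, 63 with a Twist1 UMI, 9 with a Six3 UMI and 5 with a Shh UMI. Among the 287 barcodes with the highest doublet scores were 6 of the 639 cells (0.939%) and 30 of the 117 cells left out (25.6%). In the 6 libraries of E9.5 and E10.5 the same rule found 1, 0, 4, 0, 3 and 12 cells, and in those cells Trh and En1 were at 0 UMIs, so the population was described at E8.5 only.

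Promoter sequences are printed for the markers Trh and Hes5 and for Sp5, a transcription factor induced by Wnt signaling. Trh and Hes5 name the population, and Hes5 and Sp5 are shown because they were the genes examined whose windows held a match to the Notch or Wnt motifs. Each run is the 250 bases before the RefSeq start (GRCm38.p6, the patch release of the mm10 build of the files), written 5′ to 3′ on the strand of the gene. Capitals mark matches on either strand to GTGGGAA, the core read by RBPJ, the DNA-binding partner of Notch, or to CTTTGAT, the core read by TCF and LEF factors, the nuclear effectors of Wnt signaling. The Trh window lies at chr6:92244651-92244900 on the minus strand, the Hes5 window at chr4:154960673-154960922 on the plus strand and the Sp5 window at chr2:70474673-70474922 on the plus strand.
Trh: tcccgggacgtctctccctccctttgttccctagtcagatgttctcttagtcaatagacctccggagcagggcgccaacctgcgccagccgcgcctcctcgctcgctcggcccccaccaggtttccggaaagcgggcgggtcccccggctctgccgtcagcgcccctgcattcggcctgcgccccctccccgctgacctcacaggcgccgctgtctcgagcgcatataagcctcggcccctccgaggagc
Hes5: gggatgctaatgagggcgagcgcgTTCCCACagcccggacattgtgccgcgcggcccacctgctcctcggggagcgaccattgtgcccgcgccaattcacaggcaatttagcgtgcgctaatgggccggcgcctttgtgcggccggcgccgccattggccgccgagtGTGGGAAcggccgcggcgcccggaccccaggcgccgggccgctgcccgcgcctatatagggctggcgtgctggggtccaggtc
Sp5: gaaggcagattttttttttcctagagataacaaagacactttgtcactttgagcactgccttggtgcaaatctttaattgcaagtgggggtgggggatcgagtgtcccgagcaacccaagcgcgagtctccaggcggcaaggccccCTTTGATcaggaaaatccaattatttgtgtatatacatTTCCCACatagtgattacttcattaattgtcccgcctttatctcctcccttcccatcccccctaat
The Hes5 window held 2 RBPJ-type matches and the Sp5 window held 1 TCF/LEF-type match and 1 RBPJ-type match. Over 32851 RefSeq windows of the same 250 bases, 5.42% held GTGGGAA and 3.21% held CTTTGAT on either strand. TAATCC, the letters bound by Otx-type homeodomains, was in 6.25% of all windows and in none of these 3. The windows of Wnt1, Tal2, Axin2, En1, Mab21l2 and Dusp6 held 0 matches to all 3 motifs, and of 4 Otx2 windows 1 held TAATCC. A match is a description of letters only and says nothing of binding in these cells.

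The 4 genes that name the population differed in how evenly cells carried them. Otx2 (chr14:48657677-48673819, minus strand) had a median of 4 UMIs per cell and Mab21l2 (chr3:86545581-86548629, minus strand) a median of 2, each with at least 1 by the rule. Hes5 (chr4:154960923-154962371, plus strand), a Notch-induced repressor of neuron formation, had a median of 3 UMIs and was at 0 in 153 of the 639 cells (23.9%). Trh (chr6:92242061-92244650, minus strand), which encodes the precursor of thyrotropin-releasing hormone, was at 0 in 360 cells (56.3%) and reached 47 UMIs in 1 cell, and the 10% of cells with the most Trh held 65.8% of its UMIs. The same share was 37.5% for Hes5, 34.8% for En1 and 45.8% for Wnt1. Trh was thus concentrated in a minority of the cells, as was the proneural gene Neurog1 (0 UMIs in 86.7% of cells, and 93.5% of its UMIs in the top 10%).

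**Figure D1:**
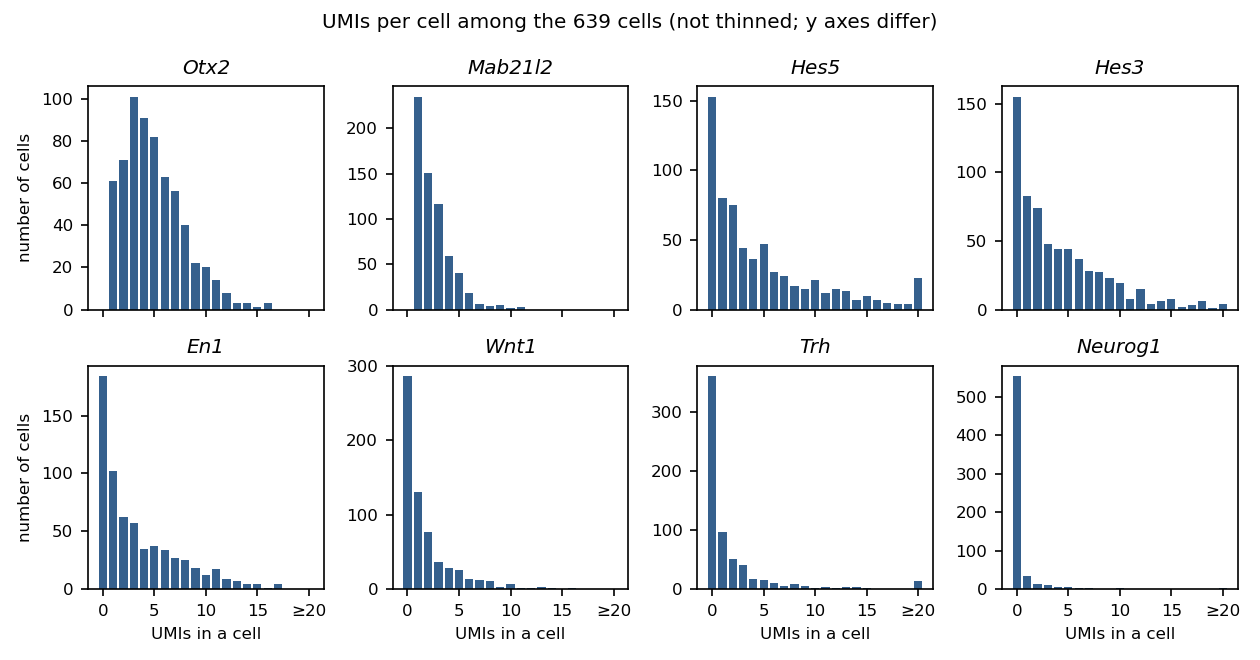
Number of cells (y axis, different in each panel) by UMIs in a cell (x axis, 20 or more pooled) for 8 genes in the 639 cells, at full depth. Otx2 and Mab21l2 start at 1 by the rule, whereas Trh was at 0 in 360 cells and Neurog1 at 0 in 554.

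Shares of cells with a UMI depend on depth, so each cell was also thinned at random to 5000 UMIs, which left out 2 of the 639. At that depth Hes5 was seen in 51.0% of cells (47.1 to 55.0), Hes3, a related repressor expressed near the isthmus, in 48.0%, En1 in 44.0%, Sp5 in 34.7%, Tal2 in 32.3%, Wnt1 in 26.2% and Trh in 19.9% (16.9 to 23.3). In crest cells, which should lack Trh and Hes5 and serve as the background, Trh was seen in 0.633% of cells and Hes5 in 1.36%. Of those crest cells, 8.01% were among the barcodes with the highest doublet scores, and the source of these UMIs was not tested. In the Hox cells Trh was seen in 0 of 130 cells, which by the limit of 3 counts allows a share of cells with a UMI at this depth of up to 2.31% (2.80% by the exact interval), and Hes5, which hindbrain progenitors also use, in 18.5%. Median depths before thinning were 20954 UMIs in the 639 cells, 26566 in crest cells and 19590 in Hox cells. Without thinning, Trh was seen in 43.7% and Hes5 in 76.1% of the 639 cells, and in 2.04% and 5.02% of crest cells. Unthinned Hox cells had Trh in 1.53% and Hes5 in 36.6% of cells.

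The sums of UMIs over the 639 cells were next compared with those over all other cells of the library, over the 84 forebrain-side cells and over 266 Gbx2 cells (Gbx2 at least 1 UMI, and 0 of Otx2, Hoxa2, Hoxb1, Hoxb2, Shh, Sox10 and Twist1). The last 2 sets stand for positions in front and behind. The set in front required Six3, which marks the front of the forebrain, so forebrain cells without Six3 are not in it. It need not hold the cells next to the midbrain, and differences from it are not contrasts across that border. All folds are ratios of CPM. Genes with a mean of the 2 levels of at least 5 CPM were compared, leaving out the genes of the rules, and a 2-fold difference was counted. A gene high in 1 of the 2 sets can pass this filter through that set alone, so counts over a gene list describe the genes that passed and support no direction. The cells were chosen by measured genes, so these differences describe the choice as well as the cells. Levels are counts of 3′ tags and are compared for 1 gene across cells, not between genes.

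**Figure D2:**
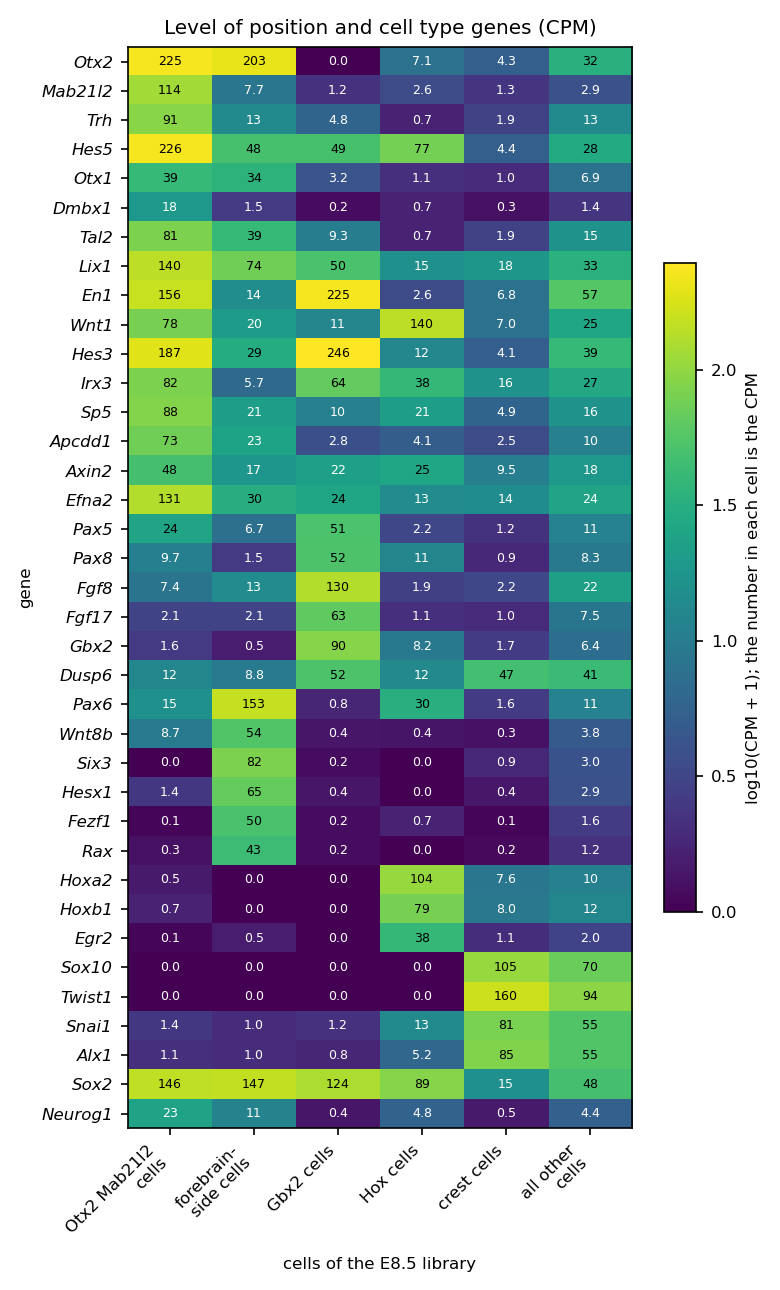
Level of 37 genes (rows) in 6 sets of cells of the E8.5 library (columns), as the CPM of summed UMIs printed in each field and coloured as log10(CPM + 1). Otx2, Mab21l2, Six3, Sox10, Twist1, Gbx2, Hoxa2 and Hoxb1 enter the rules that define columns. En1 and Hes3 are high in both the Otx2 Mab21l2 cells and the Gbx2 cells, while Trh, Apcdd1, Sp5 and Dmbx1 are highest in the Otx2 Mab21l2 cells.

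Against all other cells, 5235 in number and 2210 of them the crest cells above, 288 of 8175 genes (3.52%) were at least 2-fold higher in the midbrain cells and 211 (2.58%) at least 2-fold lower, with a median fold of 1.02 over all genes compared. Hes5 was at 226 CPM against 28.0 CPM, 8.07-fold higher (7.69 to 8.47). Apcdd1, a membrane inhibitor and target of Wnt signaling, was 7.27-fold higher at 73.1 CPM, and Trh was 7.23-fold higher at 91.1 CPM against 12.6. The other cells included 596 that missed the rule only for lack of a Mab21l2 UMI. They held 947 of the 1590 Trh UMIs, 1567 of the 3528 Hes5 UMIs and 540 of the 1269 Apcdd1 UMIs of that set. In these 596 cells Trh was at 80.3 CPM, Hes5 at 133 CPM and Apcdd1 at 45.8 CPM, so the genes were not confined to the selected cells. Among genes with a mean level of at least 20 CPM, from which those furthest in each direction are named throughout, Hes5, Apcdd1 and Trh were followed by Ehbp1, an adaptor in membrane trafficking (6.79-fold), the homeobox genes Irx1 (6.16-fold) and Otx1 (5.65-fold), Sp5 (5.64-fold), Cntnap2, an adhesion protein of neurons (5.50-fold) and the ephrin ligand Efna2 (5.47-fold). The 10 genes furthest below reached a mean of 20 CPM through the other cells, where they were high. Alx1, a homeodomain factor of cranial mesenchyme, was at 1.14 CPM against 54.5, Snai1, a repressor used in crest delamination, at 1.43 against 54.8, Ets1 at 1.14 against 43.2 and Mef2c at 2.42 against 88.6. Inka1, Phactr1, Dlc1, Tfap2a, Tfap2b and Cnn2 completed the 10 lowest, between 16.5-fold and 42.2-fold lower. Of the 14 migrating crest genes, 12 were compared and 12 were lower, but 3 of the 14 reached 5 CPM in the midbrain cells, so most passed the filter through the other cells, where they are high. Of the 24 midbrain and isthmus genes compared, 15 were at least 2-fold higher and 2 lower (median fold 2.61), and of 14 neural progenitor genes 8 were higher and 1 lower (median fold 2.25), with Sox1, Sox2, Sox3 and Sox21 between 2.57-fold and 3.29-fold higher and Fabp7 at 21.8 CPM against 50.7.

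Against the forebrain-side cells, 141 of 8199 genes (1.72%) were at least 2-fold higher and 144 (1.76%) lower, with a median fold of 1.00. Among the higher genes, the homeobox gene Irx5 was at 41.1 CPM against 2.58 CPM, 15.96-fold higher (6.80 to 49.3), Irx3 at 82.0 against 5.67 and En1 at 156 against 13.9, 11.2-fold higher (7.66 to 17.0). Trh was 7.07-fold higher (4.77 to 10.97) and Hes3 6.35-fold higher, at 187 CPM against 29.4. Irx1, Fam181b, Hes5 and Efna2 were 4.38-fold to 4.99-fold higher. Among the lower genes, the forebrain factor Fezf1 was represented by 1 UMI in 639 cells, against 97 UMIs in 84 cells, and Rax, required for eye formation, was at 0.285 CPM against 42.8. Fezf2, Foxd1, Hesx1, Lhx5, Hopx and Shisa2 were also among the 10 lowest. Pax6 was at 15.04 CPM against 153, 10.1-fold lower, and Nkx2-9, a gene induced by hedgehog, at 5.77 against 86.6. Of the 21 forebrain genes, 16 were compared and 16 were at least 2-fold lower, but 3 of the 21 reached 5 CPM in the midbrain cells, so most passed the filter through the forebrain-side cells and the count supports nothing further. Of 24 midbrain and isthmus genes 15 were higher and 1 was lower (median fold 3.24).

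Against the Gbx2 cells behind the boundary, 129 of 8193 genes (1.57%) were at least 2-fold higher and 98 (1.2%) lower, with a median fold of 1.01. Ehbp1 was at 119 CPM against 2.42, 49.3-fold higher (28.2 to 95.6), and Otx1 at 39.2 against 3.23, 12.1-fold higher. These genes are neighbours on chromosome 11: Ehbp1 (chr11:22005828-22342292) lies 2930 bp from Otx1 (chr11:21994764-22002897) on the same strand. Apcdd1 was 25.9-fold higher (15.4 to 47.5), Trh 18.8-fold higher (12.6 to 29.5), Tal2, a basic helix-loop-helix factor of midbrain neuron formation, 8.77-fold higher, Sp5 8.68-fold higher and Wnt1 6.89-fold higher, at 77.9 CPM against 11.3. The lincRNA 2700046A07Rik, Glrx and Efna2 were 5.37-fold to 7.66-fold higher. Of the lower genes, the isthmic signals were furthest apart: Fgf17 was at 2.07 CPM against 62.8, 30.4-fold lower, and Fgf8 at 7.41 CPM against 130, 17.5-fold lower. The FGF feedback inhibitors Spry2 (5.71-fold), Dusp6 (4.46-fold) and Spred1 (3.27-fold) were lower as well. So were Pax8, Fabp7, the claudin Cldn10 and Ifitm3.

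**Figure D3:**
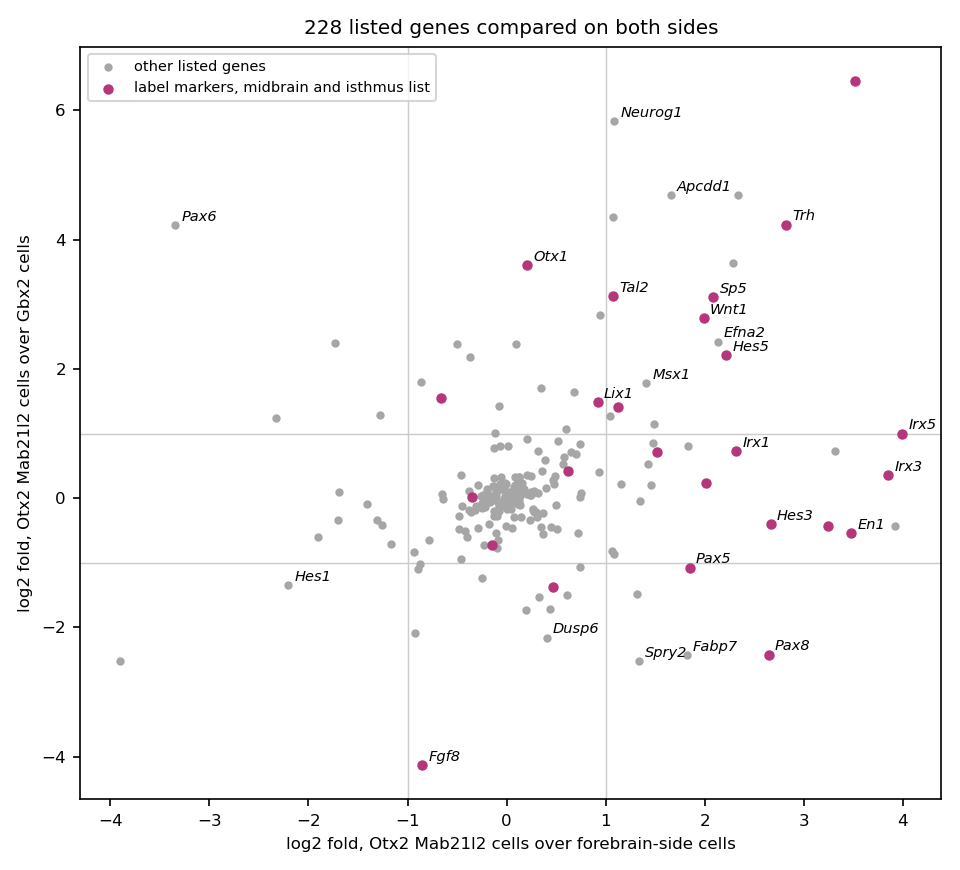
Log2 fold of the 639 Otx2 Mab21l2 cells over 84 forebrain-side cells (x axis) and over 266 Gbx2 cells (y axis) for the 228 listed genes compared in both, with lines at 2-fold. 16 genes lie at the upper right, higher than on both sides, among them Trh, Sp5, Wnt1, Hes5, Tal2 and Efna2, and Fgf8 lies lowest on the y axis.

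Setting both sides together, 16 of the 228 listed genes compared in both were at least 2-fold higher than in the forebrain-side cells and in the Gbx2 cells. Another 2, Hes1 and Nkx2-9, were at least 2-fold lower than in both. Over the 7920 genes of any kind compared in both, 34 (0.429%) were higher and 11 (0.139%) lower than on both sides. The 16 included the Wnt ligands and targets Wnt1, Wnt5a, Axin2, Sp5 and Apcdd1, the proneural genes Neurog1 and Neurog2 with Gadd45g, the transcription factors Dmbx1, Tal2, Meis2 and Msx1, and Hes5, Efna2 and Trh. A place among the 16 does not mean that a gene was highest in the midbrain cells. Wnt1 and Meis2 were not, since at 5000 UMIs they were seen in 26.2% and 23.1% of midbrain cells and in 47.7% and 56.9% of Hox cells. Msx1 was among the leading genes of a cluster of 160 cells led by Egr2, in the clustering described below. Another 5 genes (Pax5, Pax8, Fabp7, Spry2 and Il17rd) were higher than in the forebrain-side cells and lower than in the Gbx2 cells, and 4 (Pax6, Dkk1, Epha7 and Krt18) the reverse. The comparisons share the 639 cells, and the forebrain-side group is small, so these counts carry no test.

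Several Wnt ligands, their partners and targets were higher in the midbrain cells than in the rest of the library. Of 48 listed Wnt genes 25 were compared with all other cells, and 11 were at least 2-fold higher and 3 lower, where 3.52% of all genes were higher and 2.58% lower (median fold 1.85, against 1.02 for all genes). Among the ligands and their partners, Wnt1 was at 77.9 CPM (73.4 to 82.7) against 24.9, and Rspo1, a secreted amplifier of Wnt signaling, at 15.8 against 2.75. Wls, which carries Wnt proteins to the cell surface, was at 177 CPM against 68.1. Among the targets that feed back on the pathway, Axin2 was at 47.8 CPM (44.2 to 51.5) against 17.7 in all other cells, 17.0 in the forebrain-side cells and 21.6 in the Gbx2 cells. Wnt genes were not uniformly higher: the receptor gene Fzd7 was at 4.49 CPM against 20.8 in all other cells, and Dkk1, a secreted Wnt inhibitor, was at 21.4 CPM against 71.2 in the forebrain-side cells. Against those cells 10 of 27 pathway genes were higher and 8 lower, beside 1.72% and 1.76% of all genes. Against the Gbx2 cells 7 of 23 were higher and 2 lower (median fold 1.26), beside 1.57% and 1.2% of all genes.

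Several FGF ligands and feedback inhibitors were lower than in the Gbx2 cells. Of 23 listed FGF genes 18 were compared with these cells, and 12 were at least 2-fold lower and 1 was higher, beside 1.2% and 1.57% of all genes, with a median fold of 0.355 against 1.01 for all genes. Of the 23, 14 reached 5 CPM in the midbrain cells, so some, such as Fgf17, passed the filter through the Gbx2 cells, and the count supports nothing further. Besides the genes named above, Il17rd, a membrane inhibitor of FGF signaling, was at 18.0 CPM against 50.3, and Spry1 at 16.5 against 46.8, while the receptor gene Fgfr1 was at 43.2 CPM against 63.0. Fgf15, another ligand, was at 51.6 CPM (47.9 to 55.5) against 44.2 and so did not follow Fgf8, and Fgfr2, at 19.0 CPM against 3.63, was the gene in the other direction. Against the forebrain-side cells 0 of 13 FGF genes were 2-fold lower and 3 were higher, beside 1.76% and 1.72% of all genes.

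Among the isthmus factors the order depended on the gene. En1 was at 156 CPM in the midbrain cells (149 to 162) and 225 CPM in the Gbx2 cells, and Hes3 at 187 and 246 CPM. Pax5 was at 24.2 against 50.9 CPM and Pax8 at 9.70 against 51.9 CPM. Dmbx1, a homeobox gene of the midbrain, was at 17.7 CPM (15.5 to 20.02) against 0.202 CPM, which was 1 UMI in 266 cells. Gbx2 itself, the gene of the comparison's rule, was at 1.57 CPM in the midbrain cells. Over the list of midbrain and isthmus factors, 8 of the 29 compared with the Gbx2 cells were higher and 9 lower, against 1.57% and 1.2% of all genes. Of the 36 listed, 25 reached 5 CPM in the midbrain cells, so some passed the filter through the Gbx2 cells.

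Besides Hes5, several other Notch pathway genes were higher than in the other cells of the library. Of 21 listed Notch genes 16 were compared with all other cells, and 11 were at least 2-fold higher and 1 lower, against 3.52% and 2.58% of all genes (median fold 2.64). The ligand Dll1 was at 15.7 CPM (13.7 to 17.9) against 3.42, the modulator Lfng at 29.7 against 9.78 and the target Nrarp at 14.97 against 5.17. Dll1 was uneven: it was at 138 CPM in 27 cells of a neurogenic cluster and at 9.02 and 13.4 CPM in the 2 clusters that held most of the cells. Over the same 3 sets Lfng was at 63.4, 29.2 and 28.3 CPM and Nrarp at 7.46, 16.6 and 13.8 CPM. Hes1 was the gene in the other direction, at 28.8 CPM (26.1 to 31.8) against 66.6 in all other cells, 133 in the forebrain-side cells and 73.5 in the Gbx2 cells. Hes5 was thus higher in the midbrain cells than in all 3 comparison sets and Hes1 lower, while Hes3 was higher than in all other and forebrain-side cells and lower than in the Gbx2 cells. Against the forebrain-side cells 2 of 17 Notch genes, Hes5 and Hes3, were 2-fold higher and 2 lower, beside 1.72% and 1.76% of all genes (median fold 1.27). Against the Gbx2 cells 6 of 16 were higher and 1 was lower, beside 1.57% and 1.2% of all genes (median fold 1.53). Of 17 neurogenesis genes, 8 passed the filter on mean level against all other cells, the same number that reached 5 CPM in the midbrain cells, and 5 of these were at least 2-fold higher (median fold 3.06). Neurog1 was at 23.0 CPM against 0.404 in the Gbx2 cells and Gadd45g at 20.6 against 1.01. These levels rested on few cells: the 27 cells of a small neurogenic cluster described below held 196 of the 322 Neurog1 UMIs and 217 of the 289 Gadd45g UMIs. In the 2 clusters that held most of the cells Neurog1 was at 9.95 and 8.44 CPM and Gadd45g at 5.44 and 4.04 CPM. Tubb3, a tubulin of neurons, was at 85.3 CPM against 24.6 in the Gbx2 cells and 155 in the forebrain-side cells, and the 27 cells held 386 of its 1196 UMIs.

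The dorsal and border list, which holds crest genes, had 3 of 20 genes higher (Wnt4, Zic1 and Zic5) and 8 lower than in all other cells (median fold 0.842), where 3.52% of all genes were higher and 2.58% lower with a median fold of 1.02. Among 6 ventral and hedgehog genes, Ntn1, a guidance cue of the floor plate, and Nkx6-2 were higher and Nkx2-9 was lower (median fold 1.36). Of 11 Eph and ephrin genes, which sort cells at boundaries, Efna2 and Efnb3 were higher and Efnb2 and Epha4 lower (median fold 1.61).

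Summed levels of cell cycle genes were similar in the midbrain cells and the library. The median cell carried 4696 CPM of the S phase list and 8421 CPM of the G2/M list, against 4495 and 7642 CPM in all other cells. None of 41 S phase genes and none of 52 G2/M genes was 2-fold different from all other cells. Of all genes 3.52% were higher and 2.58% lower, so few calls were likely in lists of this size. Of 13 listed retinoid genes 7 were compared with all other cells, and 4 were at least 2-fold lower and 1 higher, against 2.58% and 3.52% of all genes. Against the forebrain-side cells 1 of 5 was higher and 0 were lower, beside 1.72% and 1.76% of all genes. Against the Gbx2 cells 0 of 6 were higher and 1 was lower, beside 1.57% and 1.2% of all genes. These last 2 comparisons hold too few genes to be read as a result about the list. Crabp1, a retinoic acid binding protein abundant in crest and hindbrain, was at 262 CPM against 1403 in all other cells and 5167 in Hox cells.

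The cells were also grouped without the rule. All 5874 cells were clustered on 1981 variable genes that did not include the 6 genes, and 590 of the 639 cells (92.3%) fell in 2 of 18 clusters. The larger share, 305 cells, lay in a cluster of 549 and the next, 285, in a cluster of 591. These clusters had Trh and Apcdd1 among their 10 leading genes, and differed in cell cycle genes and in some position genes. In the 305 cells Ube2c, a ubiquitin enzyme of mitosis, was at 801 CPM against 219 CPM in the 285, and Pcna, a replication clamp, at 379 against 552 CPM. Wnt1 was at 98.7 against 58.9 CPM, Msx1 at 61.8 against 34.7 and Pax6 at 17.8 against 5.87. Neurog2 ran the other way, at 7.56 against 13.8 CPM, and En1 was similar, at 163 against 153 CPM. Another cluster of 80 cells, led by Cck, Gadd45g, Cartpt and Neurog1, held 27 of the cells, and 10 more fell in the cluster that held 75 of the 84 forebrain-side cells. The last number depended on the resolution of the clustering, since at resolution 1.5 the cluster with 77 of the forebrain-side cells, led by Hesx1, Pax6 and Wnt8b, held 38 of the 639 cells (5.95%). Only 6 fell in the cluster with 248 of the 266 Gbx2 cells.

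The rule took about as many cells of these 2 clusters as it left. Of their 1140 cells, 550 were not selected. Of the 550, 338 lacked only a Mab21l2 UMI, 21 lacked only an Otx2 UMI, 68 lacked both and 123 carried a UMI of an excluded gene. The 338 cells had a median of 18893 UMIs and the 590 selected cells 20979, so the cells left out for Mab21l2 were shallower in the median, and the 639 cells are not a full count of the midbrain in the library.

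The cells on either side of the Mab21l2 threshold show how the edge runs. Among cells that met every other condition, 596 had 0 Mab21l2 UMIs and lay just outside, 235 had 1 UMI and 137 had 4 or more. Median depth ran with these steps, from 18923 UMIs at 0 to 22487 UMIs at 4 or more, and its part in the levels was not tested. Pax6 was at 50.7 CPM in the cells with 0 UMIs, 26.3 CPM with 1, 16.6 with 2, 7.91 with 3 and 3.01 with 4 or more. Fgf8 was at 27.4, 11.04, 8.31, 4.52 and 3.61 CPM over the same steps, and Nkx2-9 at 43.7, 6.25, 12.3, 2.64 and 1.20 CPM. Hes3 ran the other way, from 90.3 CPM with 0 UMIs and 150 with 1 to 265 CPM with 4 or more. Tal2 and Wnt1 held similar levels throughout, 72.2 to 87.0 CPM and 69.0 to 83.1 CPM. The cells just outside the rule, summed as 1 set, thus carried more Pax6, Fgf8 and Nkx2-9 and less Hes3. Of these 596 cells, 338 lay in the 2 clusters that held most of the midbrain cells, and the others lay in other clusters. The part of those other cells in the levels was not tested. En1 was also higher in the 596 cells, at 214 CPM, than in the cells with 4 or more UMIs, at 135 CPM. Trh was at 80.3 CPM just outside and at 119, 90.5, 73.9 and 65.0 CPM with 1, 2, 3 and 4 or more UMIs. Hes5 was at 133 CPM just outside and at 214, 256, 233 and 208 CPM over the same steps. The cells just outside thus shared Trh and, at a lower level, Hes5. The 25 cells with Mab21l2 but no Otx2 UMI had En1 at 190 CPM and Pax6 at 0.

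Position genes varied among the 639 cells. Cells were divided by whether a UMI of a gene remained after thinning to 5000 UMIs, so that depth did not enter the division, and the level of 235 listed genes with at least 5 CPM was set side by side, counting 1.5-fold differences. No such count was made over all genes. The counts here and for the divisions below therefore describe the listed genes and support nothing further. The 280 cells with an En1 UMI had 20 genes higher and 13 lower than the 357 without. Among the higher genes, Pax8 was at 17.3 CPM against 3.99, 4.33-fold higher (2.89 to 6.66), Fgf8 at 13.2 against 3.12 and Pax2 at 12.8 against 4.12. The FGF-induced genes Etv5, Dusp6, Il17rd and Spry2 were 2.87-fold to 3.61-fold higher. Trh was at 144 CPM against 51.6, 2.79-fold higher (2.48 to 3.14), and was seen in 23.9% of the cells with En1 and 16.8% of those without. Pax6 was at 1.83 CPM against 24.97, 13.6-fold lower, with 0% against 7.84% of cells, and Epha7, Wnt3a and Wnt8b were also lower. In the 28 cells with a Pax6 UMI, a division chosen after its values were seen, En1 was represented by 3 UMIs, at 5.04 CPM against 162 CPM in the other 609. These 28 all lay among the cells without an En1 UMI, so their low En1 level restates the division by En1 and adds no support. The cells were not put in an order, and whether these 28 belong to the midbrain was not tested. Wnt8b and Epha7 were 8.71-fold and 8.36-fold higher in those 28 cells.

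**Figure D4:**
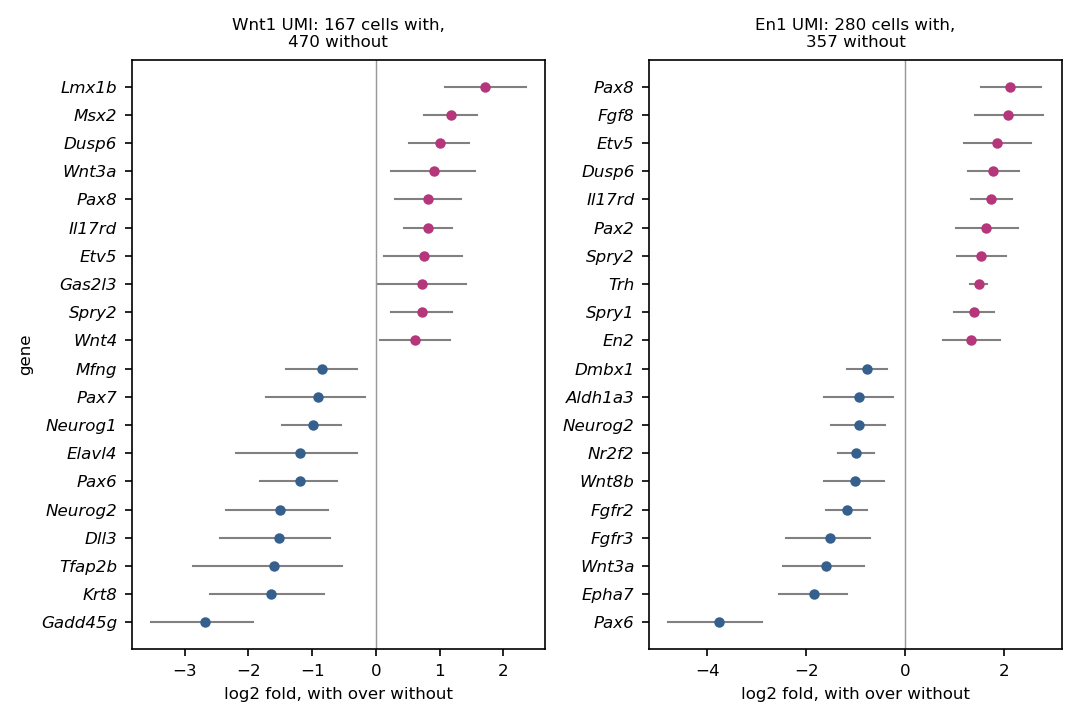
Log2 fold in cells with a Wnt1 UMI (left) or an En1 UMI (right) over cells without, after dividing the 637 cells at 5000 UMIs, for the listed genes with the largest 1.5-fold differences whose interval does not include a fold of 1, at most 10 of the genes reported here a side. Points are folds of summed UMIs and lines are 95% intervals for counting error, and Pax6 is the lowest gene on the right at 0.0733 of its level.

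The 167 cells with a Wnt1 UMI had 11 genes higher and 14 lower than the 470 without. Lmx1b, a homeodomain factor that acts with Wnt1, was at 12.9 CPM against 3.95, 3.28-fold higher (2.11 to 5.11), and the dorsal gene Msx2 at 24.8 against 10.98, 2.26-fold higher. Wnt3a, Dusp6 and Pax8 were 1.77-fold to 2.00-fold higher. Among the genes lower were those of neuron formation: Gadd45g was at 4.13 CPM against 26.4, 6.39-fold lower, Dll3 at 3.86 against 11.1 and Neurog2 at 4.41 against 12.5. As shares of cells, Gadd45g was seen in 2.40% against 5.53% and Dll3 in 3.59% against 3.62%. The 27 cells of the small neurogenic cluster held 217 of 289 Gadd45g UMIs, 87 of 129 Dll3 UMIs and 12 Wnt1 UMIs, and their part in these differences was not tested. The 20 cells with an Fgf8 UMI were few. In them Spry2 was 2.79-fold higher (1.56 to 4.69), En1 was at 236 CPM against 152 and Trh was represented by 1 UMI, against 94.5 CPM in the other 617. Trh was therefore higher with En1 and at 1.92 CPM with Fgf8, although Fgf8 itself was higher with En1.

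The remaining divisions were chosen after their values were seen. In the 44 cells with a UMI of Nkx6-2, a ventral homeobox gene, Neurog2 was at 42.4 CPM against 7.98, 5.31-fold higher (3.62 to 7.67), in 11.4% of cells against 2.87%. Nkx2-9 was 9.51-fold higher, Nkx6-1 5.63-fold and the hedgehog receptor Ptch1 3.33-fold higher. Zic1 and Zic5 were at 0 UMIs in these 44 cells, against 21.6 and 27.3 CPM in the other 593. Msx1, a dorsal gene, was represented by 2 UMIs, at 2.02 CPM against 54.3, and Pax3 was at 7.06 against 37.7 CPM. In the 22 cells with a Neurog2 UMI, Zic1 was likewise at 0 UMIs, Nkx6-2 was at 92.5 CPM against 21.2 and Msx1 at 6.60 against 52.1. Neurog2 was also 2.58-fold higher (1.404 to 4.41) in the 28 cells with a Pax6 UMI, in 7.14% of cells against 3.28%, and Zic1 was 2.40-fold higher in them. With 22 to 44 cells, these divisions rest on small numbers.

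**Figure D5:**
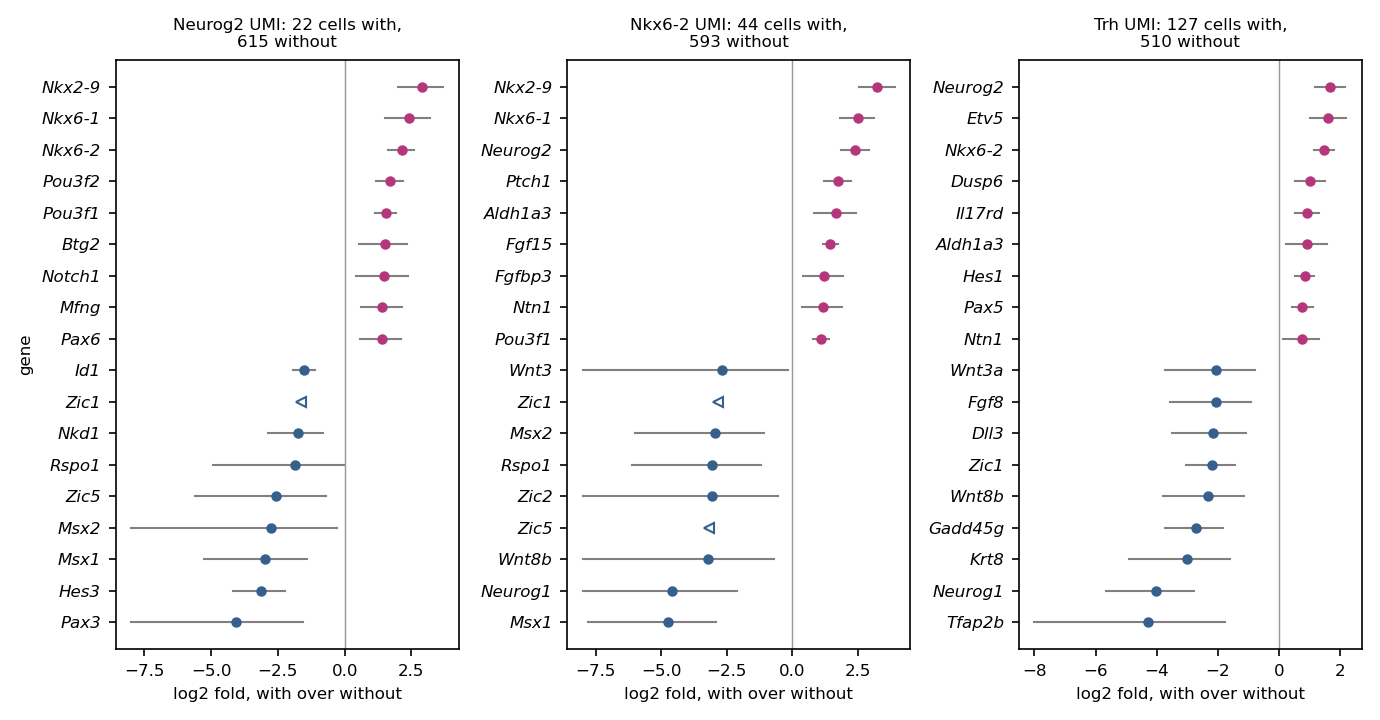
Log2 fold in cells with a UMI of Neurog2, Nkx6-2 or Trh over cells without, as in the plot of the divisions by Wnt1 and En1, at most 9 of the genes reported here on each side. Open triangles are bounds for genes at 0 UMIs in the cells with the gene, set at 3 counts, and lines are cut where they leave the axis on the left. Nkx6-2 is high with Neurog2 and with Trh, and Zic1 is at 0 UMIs with Neurog2 and with Nkx6-2.

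The 127 cells with a Trh UMI had 13 genes higher and 34 lower than the 510 without. Neurog2 was at 22.9 CPM against 7.18, 3.19-fold higher (2.27 to 4.48), though in 4.72% of cells against 3.14%, and Nkx6-2 was at 47.6 CPM against 17.2, in 14.2% of cells against 5.10%. Etv5 and Dusp6, targets of FGF signaling, were 3.04-fold and 2.02-fold higher, while Fgf8 was at 2.08 CPM against 8.80. Neurog1 was at 1.74 CPM against 28.4, 16.3-fold lower, with Gadd45g at 3.82 against 24.96 and Zic1 at 5.21 against 23.9. The cells without Trh include the small neurogenic cluster, whose 27 cells held 1 Trh UMI, 196 Neurog1 UMIs and 217 Gadd45g UMIs, and the part of that cluster in these differences was not tested.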

How the data were processed

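Droplet 3′ single-cell RNA-seq libraries were sequenced by the authors and deposited as UMI counts per gene and cell barcode. The submitters' processing notes name Cell Ranger 6.0.1 and the mm10 genome. The E8.5 library was made with an earlier chemistry (v2) than the others (v3 or v3.1), so libraries were not compared in level.

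Barcodes below 1000 detected genes or above 10% mitochondrial UMIs were dropped. The members and the gene lists were chosen with earlier results of these data known. UMIs were summed over each set of cells and divided by the total to give CPM. Genes with a mean of at least 5 CPM in a pair of sets were compared by a 2-fold threshold, with no test because 1 library was made at this stage. Named were the label markers, the genes among the 10 furthest in each direction of those with a mean of at least 20 CPM (leaving out rule, mitochondrial, haemoglobin and sex-linked genes), and, from each list, genes that were highest, at 0 or 2-fold different. Other values in the text were picked from the lists after they were seen. Intervals are exact at 95% and cover counting error, and a count of 0 was set to 3 counts over the group. For shares and divisions each cell was thinned to 5000 UMIs. Doublet scores came from Scrublet, and cells stayed in unless stated. Clusters came from scanpy 1.11.5 with leidenalg 0.10.2 at resolution 1.0. The fold calculation was tested on simulated data with known folds.

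Python 3.11.15, numpy 2.4.6, scipy 1.17.1, pandas 2.3.3, scikit-learn 1.9.0 and matplotlib 3.10.9 were used, with R 4.3.3 and edgeR 4.0.16 for TMM factors only. GENCODE vM21 positions matched 32158 of 32285 gene IDs. Promoter windows came from RefSeq (GRCm38.p6). Results of some genes are not reported here.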

Additional observations from a re-analysis of the deposited data

How the results depend on the processing

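No paired analysis was possible because 1 library was made at E8.5 and no result comes from a test between replicates. The rule took 374 cells when at least 2 UMIs of Otx2 and Mab21l2 were asked for, 1235 cells without the Mab21l2 condition and 216 cells when applied after thinning to 5000 UMIs. All 540 values of the 60 named folds under 9 alternatives kept their direction and stayed past 2-fold. The 60 were picked as the furthest in this library, the smallest at 3.27-fold, and every alternative used the same library. Staying past 2-fold is therefore no independent support. These alternatives changed the rule, the doublets, the cell filter, the depth, the scaling (TMM or median of ratios) and the weight of cells, and included the cells of the 2 main clusters alone, an alternative chosen after seeing the data.

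Counts of genes past 2-fold moved by more than 1.5 times without the filter on mean CPM. They became 2651 higher and 1133 lower against all other cells, 709 and 1462 against the forebrain-side cells, and 790 and 782 against the Gbx2 cells. After thinning they were 606 and 1615 against the forebrain-side cells, of which 23 with 115000 UMIs remained, and 494 and 532 against the Gbx2 cells.

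Thinning to 3000 UMIs put the share of the cells with a UMI at 48.7% for Otx2, 32.6% for Mab21l2, 14.7% for Trh and 39.8% for Hes5. That of crest cells was at 1.18% for Otx2, 0.317% for Mab21l2, 0.407% for Trh and 0.769% for Hes5. Without thinning Trh was at 43.7% and Hes5 at 76.1%. At resolution 0.6 a single cluster held 92.3% of the cells and the next, with the neurogenic cells, 26 cells, so that the 2 clusters with most of the cells held 96.4%, and at resolution 1.5 they held 87.8%. Depth limits every statement on cells without a UMI, and the 20 to 28 cells with Fgf8, Pax6 or Neurog2 give the least precise values.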
